A study of Mus musculus with 5 samples.

Results

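The cyclin-dependent kinase (CDK) inhibitors were followed in 5 end-stage medulloblastomas, malignant tumours of the cerebellum, from mice carrying SmoA2, an activated form of the hedgehog signal transducer Smoothened. The 7 genes were taken by platform gene symbol and comprise the Cip/Kip genes Cdkn1a, Cdkn1b and Cdkn1c and the Ink4 genes Cdkn2a, Cdkn2b, Cdkn2c and Cdkn2d. They had 15 of the 45281 probes on the arrays. A probe was kept where its detection p-value was under 0.05 on at least 2 of the 5 arrays, which held for 12 of the 15 probes and left each of the 7 genes with at least 1 probe among the 10474 genes tested.

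Both groups carried SmoA2. In the first, 3 tumours had both copies of the gene of the muscle transcription factor MyoD (MyoD+/+;SmoA2, called wild-type tumours 1 to 3 here after their MyoD genotype). In the second, 2 tumours had a single intact copy (MyoD+/-;SmoA2, called heterozygous tumours 1 and 2). The labels give neither the age of the mice, nor the promoter that drives SmoA2, nor whether any mice gave more than 1 tumour, so p-values describe the spread between samples that may share a source. The RNA came from whole tumour tissue, so fewer cells of a type and less RNA per cell cannot be told apart. The study asked whether the muscle differentiation programme takes part in what follows the loss of MyoD.

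CDK inhibitors are the brakes of the cell cycle. Ink4 proteins bind the kinases Cdk4 and Cdk6 and keep them from the D cyclins, while Cip/Kip proteins bind whole cyclin and kinase complexes, above all those with Cdk2. In the cerebellum they help granule neuron precursors, the cells from which hedgehog-driven medulloblastoma arises, to leave the cycle, and in muscle MyoD is known to raise Cdkn1a as cells stop dividing.

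Between 37.0% and 39.9% of probes were detected per array (lowest in wild-type tumour 2), and pairs of arrays correlated at a Pearson's r of 0.965 to 0.984 across genes, which are not independent replicates. Of the tumours, wild-type tumour 2 stood apart for a small set of genes. It lay at least 1 log2 unit below every other tumour in 44 of the 10474 genes, against 1 to 3 genes for each of the other tumours. Among the fixed tumour markers, 10 of the 14 granule precursor and hedgehog genes on the arrays were tested. The granule lineage genes Barhl1, Sox11 and Zic1 and the hedgehog genes Gli2, Ptch1 and Smo were among those detected in all 5 tumours. Atoh1, Pax6 and Gli1 were detected in none, which for a single array platform does not show that they are absent. Myod1 stood at log2 levels of 7.25, 6.38 and 7.08 in the wild-type tumours and 6.31 and 6.67 in the heterozygous tumours, with overlapping groups. No source used here places the Myod1 probe against the disrupted stretch of the gene, so it may not check the labels.

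The promoter windows of the 3 inhibitors with the widest range between tumours are shown because MyoD and its relatives bind a short motif, the E-box (CANNTG, a palindrome in its fixed bases, so that both strands read alike). Each window runs from 250 bases before a RefSeq start site to 50 after it (GRCm38.p6), 5′ to 3′ on the gene's strand, with E-boxes in capitals. The Cdkn1a windows are chr17:29090729-29091028 and chr17:29093519-29093818 (plus strand), the Cdkn2a windows chr4:89282143-89282442 and chr4:89294570-89294869 (minus strand), and the Cdkn2b window chr4:89310983-89311282 (minus strand).
Cdkn1a, upstream start: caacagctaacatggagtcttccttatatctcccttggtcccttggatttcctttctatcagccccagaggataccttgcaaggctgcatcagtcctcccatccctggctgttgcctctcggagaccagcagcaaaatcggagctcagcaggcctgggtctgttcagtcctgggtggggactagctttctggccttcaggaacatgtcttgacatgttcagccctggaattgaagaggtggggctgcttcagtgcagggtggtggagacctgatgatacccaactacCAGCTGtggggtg
Cdkn1a, downstream start: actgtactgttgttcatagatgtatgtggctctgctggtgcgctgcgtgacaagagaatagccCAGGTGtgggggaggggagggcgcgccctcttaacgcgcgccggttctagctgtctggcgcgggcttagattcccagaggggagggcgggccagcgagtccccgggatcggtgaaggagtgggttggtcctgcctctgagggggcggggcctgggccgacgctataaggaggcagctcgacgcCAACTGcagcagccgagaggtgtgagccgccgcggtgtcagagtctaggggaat
Cdkn2a, downstream start: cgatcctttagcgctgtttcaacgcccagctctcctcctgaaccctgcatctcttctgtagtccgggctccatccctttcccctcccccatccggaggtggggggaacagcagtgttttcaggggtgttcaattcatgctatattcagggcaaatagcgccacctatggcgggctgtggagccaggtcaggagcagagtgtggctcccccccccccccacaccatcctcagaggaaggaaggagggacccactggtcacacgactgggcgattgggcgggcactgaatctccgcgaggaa
Cdkn2a, upstream start: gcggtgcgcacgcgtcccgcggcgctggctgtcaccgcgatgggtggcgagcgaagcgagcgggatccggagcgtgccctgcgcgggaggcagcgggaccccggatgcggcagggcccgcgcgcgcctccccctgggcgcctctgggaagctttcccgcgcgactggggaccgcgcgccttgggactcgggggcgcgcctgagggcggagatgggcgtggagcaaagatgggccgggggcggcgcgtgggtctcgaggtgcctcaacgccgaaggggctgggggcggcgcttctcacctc
Cdkn2b: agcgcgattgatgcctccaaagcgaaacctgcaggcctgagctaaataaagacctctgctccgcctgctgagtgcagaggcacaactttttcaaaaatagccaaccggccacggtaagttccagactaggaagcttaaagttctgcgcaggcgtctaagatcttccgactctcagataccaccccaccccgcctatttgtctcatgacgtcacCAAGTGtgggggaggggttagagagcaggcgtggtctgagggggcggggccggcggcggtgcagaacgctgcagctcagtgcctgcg

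The upstream Cdkn1a window held 1 E-box (CAGCTG) and the downstream window 2 (CAGGTG and CAACTG), while Cdkn2b held 1 (CAAGTG) and both Cdkn2a windows held 0. No E-box overlapped a GC box (GGGCGG, searched on both strands), the motif of the Sp factors. RefSeq windows were matched for 6 of the 7 genes, 9 windows in all, and 4 of the 9 held an E-box, against 72.3% of all 32851 windows of that length. A GC box stood in 7 of the 9 windows, against 35.7% of all windows. The share of G and C bases in these windows ran from 54.7% to 77.0%, apart from a Cdkn2c window at 44.0%. The median over all windows was 52.7%, and the comparison of GC boxes made no allowance for base content. These matches are descriptions of the sequence and not binding sites.

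Cdkn1a, which encodes p21, the inhibitor best known as a target of p53, varied more between tumours than any other member. Its probe of highest mean level (ILMN_2634083) gave raw signals of 1322.4, 365.4 and 2125.2 in wild-type tumours 1 to 3 and 1193.8 and 1862.8 in heterozygous tumours 1 and 2, on the linear scale of the arrays. After background correction and quantile normalization the levels were 10.21, 8.38 and 10.90 in the wild-type tumours and 9.96 and 10.60 in the heterozygous tumours (log2). Wild-type tumour 2 was thus low and wild-type tumour 3 high, and both heterozygous tumours lay between them. The range from lowest to highest tumour was 2.52 log2 units, or 5.73-fold. Only 0.411% of the genes tested had a range at least as wide, against a median range of 0.56 over all genes. Leaving out wild-type tumour 2, the range of the other tumours was 0.95.

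The other probes of Cdkn1a showed the same low tumour. Probe ILMN_2846775 read 9.26, 7.53 and 9.55 in the wild-type tumours and 8.65 and 9.23 in the heterozygous tumours, and probe ILMN_2846776 read 8.98, 6.49, 9.56, 8.20 and 9.06 in the same order (log2 levels). On all 3 probes wild-type tumour 2 was lowest, heterozygous tumour 1 next lowest and wild-type tumour 3 highest. The step from wild-type tumour 2 to the next tumour was between 1.12 and 1.71 log2 units. These probes measure the same RNA on the same array and are not replicates of the tumour.

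**Figure D1:**
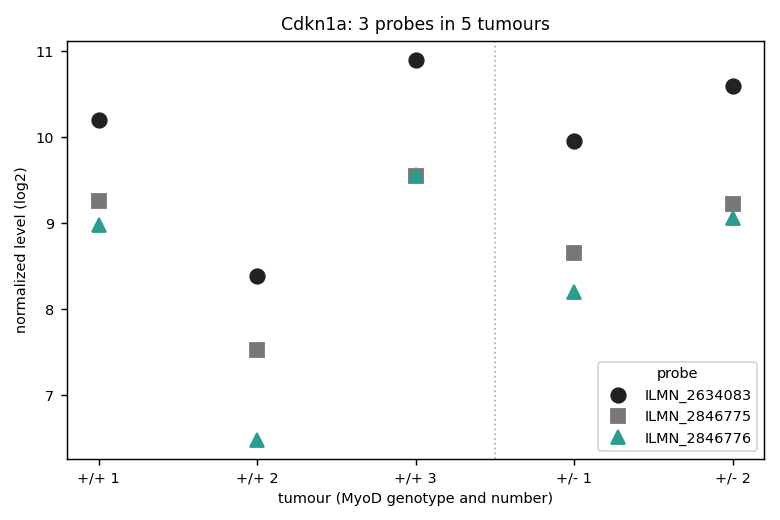
Normalized log2 level of the 3 Cdkn1a probes (symbols) in each of the 5 tumours, wild-type left of the dotted line and heterozygous right of it. On every probe wild-type tumour 2 is lowest, at 8.38, 7.53 and 6.49, and wild-type tumour 3 highest; heights are not comparable between probes.

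By genotype, Cdkn1a averaged 9.83 ± 1.30 (SD, n = 3) in the wild-type and 10.28 ± 0.46 (SD, n = 2) in the heterozygous tumours. The difference, heterozygous minus wild-type, was 0.45 ± 0.66 (SE) in limma, its 95% interval spanned -1.11 to 2.00, and the adjusted p was 0.977 with overlapping groups. That interval holds a 2-fold change in either direction, so a change of that size was not detectable in these 5 arrays. The sign of the difference rested on wild-type tumour 2. Without it the difference was -0.27 ± 0.32 (SE, limma adjusted p = 0.970), and over the other 4 single-tumour omissions it ran from 0.13 to 0.99. The sample titles carry letters whose meaning is not given, AI for wild-type tumour 1, V for wild-type tumour 2 and heterozygous tumour 1, and P for wild-type tumour 3 and heterozygous tumour 2. Both V tumours lay below both P tumours on all 3 Cdkn1a probes. Within V the heterozygous tumour was 1.57 above the wild-type tumour, and within P it was 0.30 below it (a difference of -0.30), so the genotype difference had opposite signs within the letters.

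The genes whose pattern over the 5 tumours came closest to Cdkn1a were Sowahb, Bdnf, Grm4, Tmod1 and Mybpc3. Likeness was the root mean square difference of the log2 levels after each gene's own mean over the 5 tumours was taken off, which was 0.10 for Sowahb, 0.12 for Bdnf, 0.16 for Grm4 and Tmod1 and 0.18 for Mybpc3, against a median of 0.91 over all genes. Grm4, a glutamate receptor of granule neurons, stood at 10.23, 8.78 and 10.95 in the wild-type tumours and 9.99 and 10.54 in the heterozygous tumours. Bdnf, a secreted growth factor of neurons, stood at 6.32, 4.50 and 6.84 and at 5.84 and 6.81, and was detected in 2 of the 3 wild-type tumours. Tmod1 caps actin filaments and Mybpc3 is a myosin-binding protein of heart muscle, and their ranges were 2.67 and 2.63. Each of the 5 genes was lowest in wild-type tumour 2. They were picked from all genes tested for closeness to Cdkn1a, so this shared low tumour follows from the choice and is not a separate result.

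**Figure D2:**
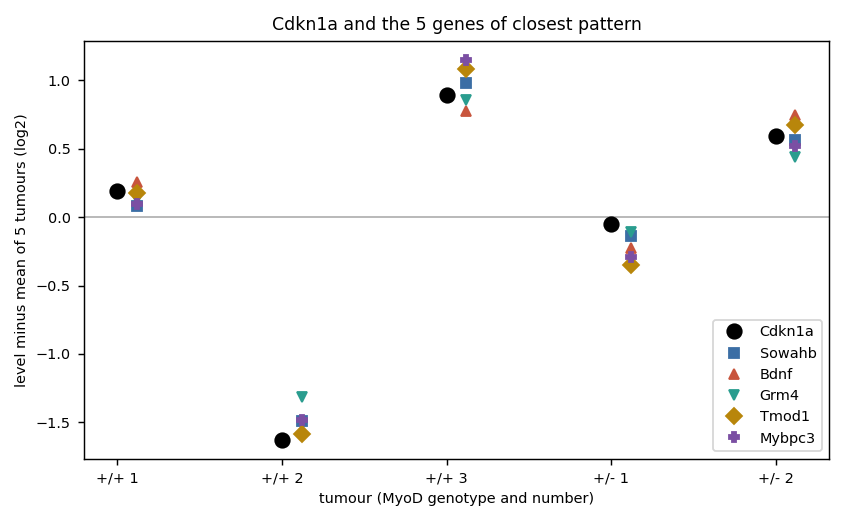
Log2 level minus the gene's mean over the 5 tumours for Cdkn1a (black circles) and the 5 genes of closest pattern (coloured symbols, moved slightly right), by tumour. All 6 genes are lowest in wild-type tumour 2 and highest in wild-type tumour 3, and the root mean square distances to Cdkn1a run from 0.10 to 0.18. The 5 genes were picked for that closeness, so the likeness follows from the choice.

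Genes of the p53 axis other than Cdkn1a, which is not counted in this list, were not low in wild-type tumour 2 as a list. Of 25 listed genes, 18 were tested. Trp53, the gene of p53 itself, and Bax had no probe under their symbols, and Pmaip1, Btg2, Aen, Eda2r and Perp were detected in no tumour. Wild-type tumour 2 was lowest in 0 of the 18 and highest in 5, against 23.1% and 27.0% of all genes tested. The summed level of the list was 8722 in wild-type tumour 2 and 7407 and 8342 in wild-type tumours 1 and 3, and 8243 and 7454 in the heterozygous tumours (linear normalized scale after taking off the offset of 16). By genotype 9 genes lay higher and 9 lower in the heterozygous tumours (median log2 difference 0.01), and 0 passed an adjusted p of 0.05 in limma. The member of smallest p, the death receptor gene Tnfrsf10b, was highest in wild-type tumour 2 and lowest, at 7.05, in heterozygous tumour 2, a difference of -0.90 ± 0.38 (SE). The repair ribonucleotide reductase subunit Rrm2b differed by 0.43 ± 0.21 and Phlda3, an inhibitor of Akt, by -0.43 ± 0.25, neither passing. The part of p53 in the Cdkn1a level was not tested.

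Of the cell type and differentiation lists, 3 had their lowest summed level in wild-type tumour 2 (the choice to show these 3 was made after their values were seen). Over all genes tested, that tumour was lowest in 23.1%, and the counts below for choroid plexus and for endothelial cells lie near that share. For granule neuron differentiation, 15 of 18 genes were tested, the tumour was lowest in 7 of the 15, and the sum was 25411 there against 32232 and 31427 in wild-type tumours 1 and 3 and 29696 and 33931 in the heterozygous tumours, with Tubb3, Nhlh1 and Snap25 detected in no tumour. The median log2 level of this list was not low in wild-type tumour 2 (10.66, within the 10.17 to 10.70 of the other tumours). For choroid plexus and ependyma, 7 of 10 genes were tested, the tumour was lowest in 2 of the 7, and the sum was 1161 there against 6658 and 9978 in wild-type tumours 1 and 3 and 2310 and 6607 in the heterozygous tumours, with Cfap126 and Tekt1 detected in no tumour. That sum put the tumours in the order of Cdkn1a probe ILMN_2846775. Ttr, the transthyretin gene of the choroid plexus, had the widest range of all genes tested, at 12.39, 5.97 and 13.14 in the wild-type and 10.40 and 12.41 in the heterozygous tumours (log2), the tumour order of the main Cdkn1a probe. Ttr is counted in that sum and was the brightest gene of the list in every tumour but wild-type tumour 2. The order of the sum and that of Ttr are therefore not separate observations. Clic6, a chloride channel gene of the same list, was highest in wild-type tumour 2 (9.10), and the list's median log2 level there, 5.84, lay within the 5.41 to 6.05 of the other tumours. For endothelial and mural cells, 13 of 13 genes were tested, the tumour was lowest in 4 of the 13, and the sum was 2101 there against 2451 and 2698 and against 2335 and 2287, while the list's median log2 level was highest there (6.91, against 6.03 to 6.63). Their part in the Cdkn1a level was not tested.

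Cdkn1b encodes p27, the inhibitor that granule neuron precursors gather before they stop dividing. It was detected in all 5 tumours by 1 of its 3 probes (ILMN_2638428), at 7.10, 7.05 and 6.58 in the wild-type tumours and 7.21 and 7.16 in the heterozygous tumours (log2). Both heterozygous tumours lay above all wild-type tumours, the only member of which this held in either direction. That is 1 of 7 members, against 20.9% of all genes tested. Heterozygous minus wild-type came to 0.27 ± 0.21 (SE, n = 3 and 2), with a 95% interval of -0.21 to 0.76 and an adjusted p of 0.957 in limma. Without wild-type tumour 3 it was 0.11, and the range over the tumours 0.16 in place of 0.62. Its other probes, ILMN_1228598 and ILMN_2923960, were detected on 0 arrays, with signals from 123.3 to 142.0 and from 126.1 to 156.1, and were not tested.

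Cdkn1c encodes p57, which is expressed from the maternal copy only in the mouse. Its 1 probe read 9.38, 9.23 and 9.49 in the wild-type and 9.24 and 8.86 in the heterozygous tumours (log2). Heterozygous tumour 2 was lowest, and heterozygous tumour 1 fell within the wild-type group. The genotype difference was -0.31 ± 0.19 (SE), with a 95% interval of -0.76 to 0.14 and an adjusted p of 0.957 in limma. It was -0.12 without heterozygous tumour 2 and -0.51 without heterozygous tumour 1. Of 10 listed genes of the surrounding imprinted region on chromosome 7, 5 were tested and 0 passed, with a median log2 difference of -0.13. Among them the growth factor gene Igf2 differed by -0.49 ± 0.23, the membrane protein gene Cd81 by -0.26 ± 0.19 and Tssc4 by -0.13 ± 0.23 (SE).

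Cdkn2b, which encodes p15, an inhibitor that answers to transforming growth factor beta, had the smallest p of the members. Its 1 probe read 5.92, 5.98 and 6.98 in the wild-type tumours and 6.84 and 7.47 in the heterozygous tumours (log2), from raw signals of 183.2, 163.0, 257.9, 239.4 and 311.6. Wild-type tumours 1 and 2 were low, and wild-type tumour 3 lay between both heterozygous tumours. The difference was 0.86 ± 0.36 (SE, n = 3 and 2), a fold of 1.82, with a 95% interval from 0.02 to 1.70. At an unadjusted p of 0.0461 it was the 1 member of 7 under 0.05, against 5.26% of all genes, and it did not pass after adjustment (limma adjusted p = 0.943). Its range of 1.55 was reached or passed by 2.29% of the genes tested. Both the difference and the range were smaller without background correction, at 0.39 and 0.72. The heterozygous tumour was higher within both title letters, by 0.86 within V and 0.49 within P, and both V tumours lay below both P tumours.

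The genes of closest pattern to Cdkn2b were Zxda, Tmcc3, 9130019O22Rik, Epb41l4a and Nf1, at distances of 0.17 to 0.24 against a median of 0.64 over all genes. Zxda, a zinc finger gene, read 7.58, 7.50 and 8.57 in the wild-type and 8.51 and 8.67 in the heterozygous tumours. Nf1, which encodes the Ras inhibitor neurofibromin, read 4.92, 5.05 and 5.75 and then 5.83 and 5.86, and was above background in 1 of the 3 wild-type tumours.

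Cdkn2a, the neighbour of Cdkn2b on chromosome 4, makes unrelated proteins from its upstream start (Arf, which restrains Mdm2) and its downstream start (p16, the Ink4 inhibitor). Its 3 probes were near background. The probe of highest mean level (ILMN_1227342) read 5.46, 5.89 and 5.35 in the wild-type and 4.75 and 5.58 in the heterozygous tumours, and was not above background in heterozygous tumour 1. Probe ILMN_1226950, annotated to another transcript of the gene, read 5.34, 5.49 and 4.64 and then 5.41 and 5.95, and was not above background in wild-type tumour 3. The difference was -0.40 ± 0.29 (SE) on the first probe and 0.52 ± 0.30 on the second, of opposite sign, with limma adjusted p-values of 0.957 over all genes and 0.966 over all probes. The third probe (ILMN_1221177), annotated to the same transcript as ILMN_1226950, was detected in heterozygous tumour 1 alone and was not tested. The position of each probe in the gene was not known here, so no probe is assigned to Arf or p16. At this signal a direction for Cdkn2a was not detectable. The closest patterns to the first probe were Cdh7, Cenph, Tmem205, Tmem63c and Luzp2, at distances of 0.05 to 0.11 against a median of 0.42.

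Cdkn2c encodes p18, an Ink4 inhibitor whose loss speeds medulloblastoma in mice with a weakened Ptch1. Its main probe (ILMN_1228366) read 9.11, 9.72 and 8.81 in the wild-type tumours and 8.84 and 9.10 in the heterozygous tumours (log2). After normalization wild-type tumour 2, the lowest for Cdkn1a, was the highest for Cdkn2c on this probe and on probes ILMN_2420939 (7.49) and ILMN_1215651 (6.36). In raw signal it was highest on ILMN_1228366 only, at 749.2 against 714.8 in heterozygous tumour 2. On ILMN_2420939 and ILMN_1215651 heterozygous tumour 2 was highest, at 251.2 and 198.9, against 249.5 and 176.3 in wild-type tumour 2. The range on the main probe was 0.92, and 0.56 with median scaling. Wild-type tumour 3, the highest for Cdkn1a, was the lowest on ILMN_1228366 and ILMN_2420939. The genotype difference was -0.25 ± 0.28 (SE), with a 95% interval of -0.91 to 0.41 and a limma adjusted p of 0.963. Its other probes gave -0.15 ± 0.27 and 0.09 ± 0.27. Without wild-type tumour 2 it was 0.01 ± 0.21.

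Cdkn2d encodes the Ink4 inhibitor p19, which the developing brain keeps in neurons after they stop dividing. Its 1 probe read 7.42, 7.64 and 7.98 in the wild-type and 7.38 and 7.58 in the heterozygous tumours (log2). The groups overlapped, with a difference of -0.20 ± 0.21 (SE, limma adjusted p = 0.963) and a 95% interval from -0.70 to 0.30. Its range was 0.60, and 44.5% of all genes tested had one at least as wide. Without wild-type tumour 3 the difference was -0.049 and the range 0.26.

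**Figure D3:**
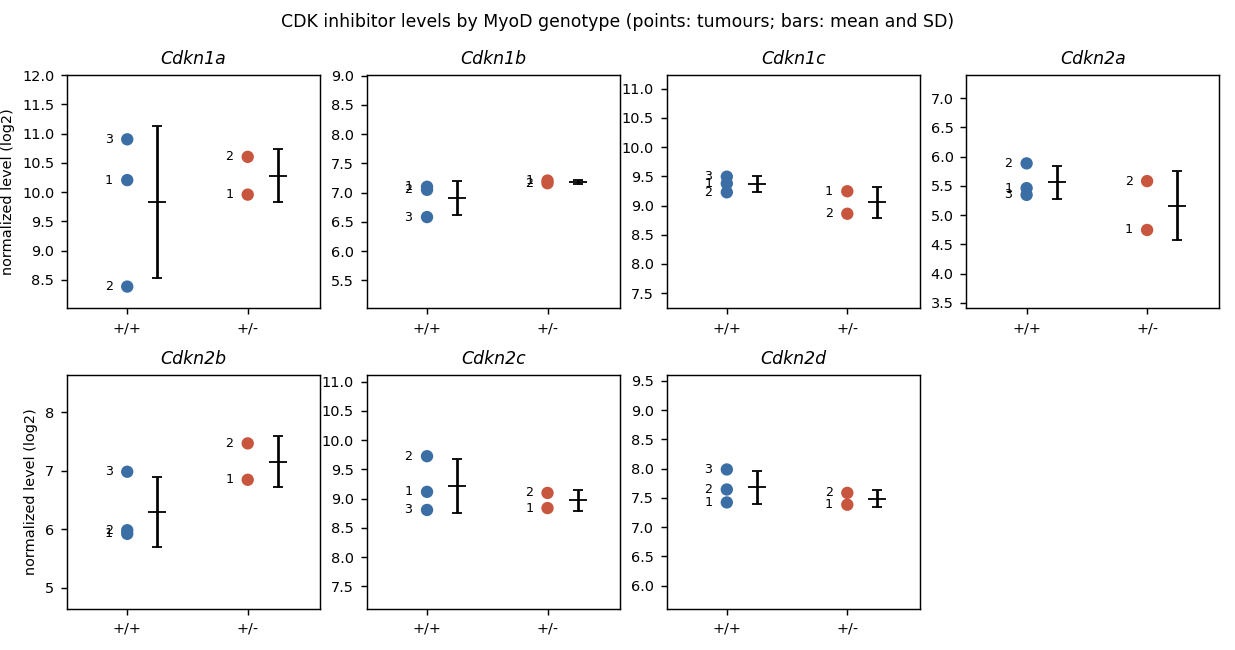
Normalized log2 level of each CDK inhibitor on its probe of highest mean level, by MyoD genotype. Points are tumours with their numbers, bars are the mean and SD (n = 3 and 2), and every panel spans the same number of log2 units; Cdkn1a spreads over 2.52 and Cdkn2d over 0.60.

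**Figure D4:**
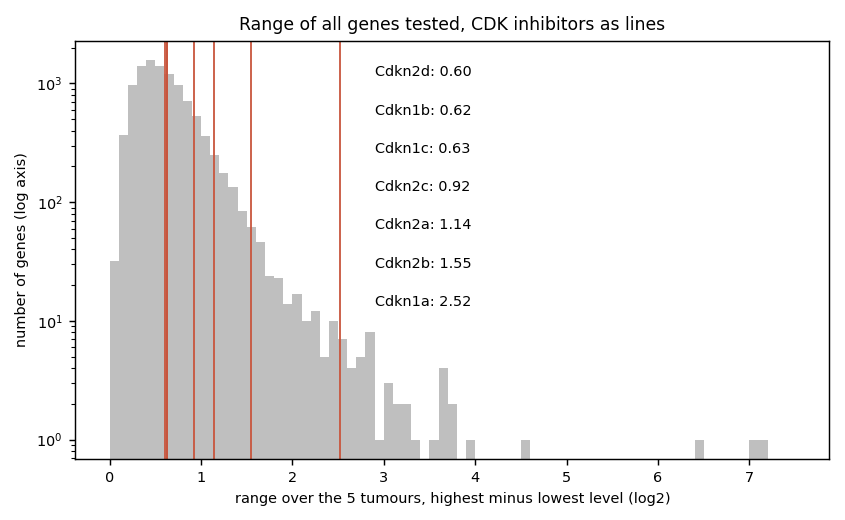
Histogram of the range over the 5 tumours (highest minus lowest log2 level) for the 10474 genes tested, with a logarithmic count axis and red lines at the 7 CDK inhibitors. Cdkn1a lies at 2.52 and Cdkn2b at 1.55, and the lines of Cdkn2d, Cdkn1b and Cdkn1c lie together between 0.60 and 0.63.

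No inhibitor passed the test between genotypes. Of the 7 genes, 3 were higher (Cdkn1a, Cdkn1b and Cdkn2b) and 4 lower in the heterozygous tumours, with a median log2 difference of -0.20 against -0.0027 over all genes tested. In limma 0 of 7 passed an adjusted p of 0.05, with adjusted p-values from 0.943 to 0.977, where 0% of the 10474 genes passed. Of all genes tested, 551 (5.26%) had an unadjusted p under 0.05. With all 5 tumours the Cip/Kip intervals for Cdkn1b and Cdkn1c exclude a 2-fold change in both directions, as do those for Cdkn2c and Cdkn2d, although the offset added in normalization shrinks the differences of dim probes.

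**Figure D5:**
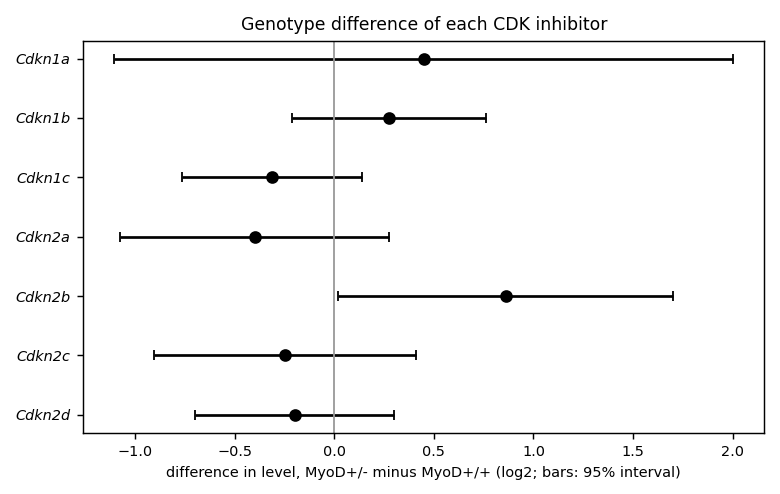
Difference in log2 level, heterozygous minus wild-type, for each CDK inhibitor (points) with its 95% interval from the limma fit over all genes (bars). The interval of Cdkn2b runs from 0.02 to 1.70 and is the 1 that leaves out 0, and that of Cdkn1a is the widest, from -1.11 to 2.00.

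The listed kinases and cyclins also did not pass. The list holds the CDK-activating kinase (Ccnh, Cdk7 and Mnat1) as well as partners of the inhibitors. Tests covered 11 of the 16 listed genes. Of these 6 lay higher and 5 lower, at a median log2 difference of 0.14, and 0 passed the threshold. In 4 of the 11 (Ccnd3, Cdk1, Ccnh and Mnat1) the groups did not overlap, against 20.9% of all genes tested. The D cyclin gene Ccnd3 read 9.92, 9.78 and 9.78 in the wild-type and 9.39 and 9.58 in the heterozygous tumours, a difference of -0.34 ± 0.17 (SE). Ccnh, the cyclin of the CDK-activating kinase, differed by 0.31 ± 0.17, and Cdk4, the main target of the Ink4 proteins, by 0.27 ± 0.20. For the retinoblastoma family and E2F factors, the substrates further down, 8 of the 11 tested were higher and 3 lower, with 0 past the threshold and a median of 0.05. E2f3, an activating E2F, differed by 0.47 ± 0.19, but was above background in only 1 of the 3 wild-type tumours. Rbl1, the pocket protein p107, differed by 0.53 ± 0.30. E2f7, a repressive E2F, was not above background in any wild-type tumour and at least 1.02-fold higher in the heterozygous tumours (limma adjusted p = 0.945), a bound on the group means from the lowest detected level of each array.

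Genes that act on the inhibitors were likewise below the threshold. Tests covered 12 of 16 genes of inhibitor turnover and binding, of which 9 lay higher and 3 lower (median log2 difference 0.11), and 0 passed. The ubiquitin ligase adaptor Ddb1 read 7.97, 7.45 and 8.13 in the wild-type and 8.61 and 8.35 in the heterozygous tumours, a difference of 0.63 ± 0.24. Ubac1, a subunit of a ligase for p27, differed by 0.22 ± 0.17 and Skp2, which marks p27 for destruction, by 0.25 ± 0.20. In this list wild-type tumour 2 was lowest in 7 of the 12, against 23.1% of all genes tested. Of 17 transcriptional regulators of the Cip/Kip genes 9 were tested, and 6 lay higher and 3 lower (median 0.11) with 0 passing. Sp1, which binds the GC box, differed by -0.41 ± 0.19, but was above background in only 1 of the 2 heterozygous tumours. The signal transducer Smad2 differed by 0.35 ± 0.17 and Myod1 by -0.41 ± 0.28 (SE).

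Regulators of the locus that holds Cdkn2a and Cdkn2b are mainly Polycomb proteins, which keep it silent. Tests covered 19 of 20 genes, of which 9 lay higher and 10 lower (median log2 difference -0.03), and 0 passed. Cbx7, a Polycomb reader of methylated histones that represses the locus, read 7.27, 7.23 and 7.11 in the wild-type and 6.57 and 6.69 in the heterozygous tumours. All wild-type tumours lay above both heterozygous tumours, with a difference of -0.57 ± 0.16 (SE, limma adjusted p = 0.911). Id1, a repressor of the p16 promoter, differed by -0.50 ± 0.22 and Eed, a subunit of the histone methylase complex, by 0.42 ± 0.23. None of the 3 passed.

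Proliferation and lineage genes give the setting of these levels. Of 18 tested proliferation genes 15 were higher and 3 lower in the heterozygous tumours (median 0.12), with 0 past the threshold. The groups did not overlap in 5 of the 18, and over all genes tested 49.6% were higher and 20.9% did not overlap. The spindle factor Tpx2 differed by 0.96 ± 0.20, the mitotic kinase Plk1 by 0.40 ± 0.17 and Nusap1, which bundles spindle microtubules, by 0.32 ± 0.19. Of the 15 genes tested for differentiation of granule neurons, 9 lay higher and 6 lower (median 0.12), with 0 past the threshold. Kcnd2, a potassium channel of granule neurons, differed by 0.71 ± 0.35 and the growth cone gene Gap43 by -0.37 ± 0.19. Grin2c, a glutamate receptor subunit of mature granule neurons, exceeded background in 2 of the 3 wild-type tumours and in 0 of the 2 heterozygous tumours. It read 5.44, 5.32 and 6.22 in the wild-type and 4.95 and 5.18 in the heterozygous tumours (limma adjusted p = 0.945). With levels at background in both groups, no fold is given. Of 10 oligodendrocyte genes tested, 8 were lower and 2 higher in the heterozygous tumours (median -0.72), with 0 past the threshold. The groups did not overlap in 7 of the 10, against 20.9% of all genes tested. An unadjusted limma p under 0.05 was found for 7 of the 10, against 5.26% of all genes tested. The summed level of the oligodendrocyte genes was 10631, 10931 and 8025 in the wild-type and 6586 and 5770 in the heterozygous tumours. Ermn and Olig2 were detected in no tumour. The part of oligodendrocytes in the levels of the inhibitors was not tested.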

How the data were processed

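Per the labels' protocols, RNA was purified with Trizol and RNeasy columns with DNase treatment, and biotin-labelled cRNA was made for Illumina arrays. The authors deposited a signal intensity per probe and array, not normalized per the file headers, and a detection p-value beside each. The deposited processed values are on a log2 scale: they rank the probes as the signals do (rank correlation 1) and differ from quantile-normalized log2 signals by at most 0.0036. The scanner and software are not given in the sources used here. Arrays carry no read depth, and the number of arrays limits the precision.

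For background correction and normalization, neqc was used (limma 3.58.1 under R 4.3.3, offset of 16), which infers background from the detection p-values. Probes were kept at a detection p under 0.05 on at least 2 arrays (18675 probes). Each gene was represented by its probe of highest mean level, which left 10474 genes, named through the platform annotation and RefSeq (34885 probes with 1 symbol, 34807 matched, 0 symbols changed). Genotypes were compared with lmFit and eBayes (two-sided, Benjamini-Hochberg over all genes, threshold 0.05), and all 18675 probes were fitted in the same way for the other probes of the 7 genes. The procedure was tested on simulated data. The members and the 19 lists were chosen with earlier results of these data known. Genes were named by rule: all members with every probe, the 5 closest patterns of each member with a range of at least 1, and the 3 genes of smallest p of each pathway list. Cell type lists are described by summed level where wild-type tumour 2, the lowest for Cdkn1a, had the lowest sum. The oligodendrocyte list is described as well, although its tumour order was that of no member. Lists not described as a whole were granule precursor and hedgehog, astrocytes, microglia and macrophages, fibroblasts and meninges, red blood cells, T and B lymphocytes and sex-linked genes, each with 0 genes past the threshold. Median log2 differences for these lists were 0.01, -0.13, 0.19, 0.05, 0.11, -0.21 and -0.21. The lymphocyte value is that of Cd8b1 alone, the 1 gene of its list that was tested. The sex-linked median mixes Xist with Y-linked genes. Xist read 10.58, 4.57 and 4.61 in the wild-type and 11.06 and 4.64 in the heterozygous tumours (log2). The Y-linked Eif2s3y read 4.51, 8.13 and 7.75 and then 4.42 and 7.85. Each genotype group thus held tumours of both patterns, and their part in the levels of the inhibitors was not tested. Alternatives were another background correction, normalization, offset, filter, probe rule, variance model and weighting, the deposited log2 values, a block on title letters, and leaving out each tumour.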

Additional observations from a re-analysis of the deposited data

How the results depend on the processing

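The count of CDK inhibitors past the threshold was 0 in every alternative run, and over 109 recomputed differences of the 7 genes the limma adjusted p ran from 0.588 to 0.999. Genes past the threshold numbered 2 when the variance was fitted robustly with a trend on the mean and 0 to 1 when single tumours were left out (1 without wild-type tumour 2 and 1 without wild-type tumour 3). When single tumours were left out, the Cdkn1a difference ran from -0.27 (without wild-type tumour 2) to 0.99 and its range from 0.95 (without the same tumour) to 2.52, while in the other alternatives they ran from 0.16 to 0.66 and from 2.01 to 3.07. The Cdkn2a difference was 0.059 with the mean of its probes and 0.52 on its other probe, and ran from -0.82 to 0.017 when single tumours were left out, positive without heterozygous tumour 1. For Cdkn2c it was 0.086 on probe ILMN_1215651 and ran from -0.45 to 0.0068, positive without wild-type tumour 2. Cdkn1b, Cdkn1c, Cdkn2b and Cdkn2d kept their sign in each alternative, but their size moved when single tumours were left out: from 0.11 (without wild-type tumour 3) to 0.37 for Cdkn1b, from -0.51 to -0.12 (without heterozygous tumour 2) for Cdkn1c, from 0.55 (without heterozygous tumour 2) to 1.20 for Cdkn2b and from -0.33 to -0.049 (without wild-type tumour 3) for Cdkn2d. Ranges of dim probes shrank without background correction, to 0.35 for Cdkn2a and 0.31 for Cdkn1b, below the 0.38 of Cdkn2d there. Median scaling moved the median of all genes by 0.14 (log2), and the genes at an unadjusted p under 0.05 were then 439 higher and 117 lower, against 261 and 290. With the title letters as a replicate block, under which wild-type tumour 1 no longer contributes, the Cdkn1a difference was 0.64. The labels do not say that the letters pair the tumours, and the cause of the changes of sign was not tested. The 3 probes of Cdkn2a were close to background, which limits their precision.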
